A study of Rattus norvegicus with 8 samples.

Results

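The genes described are the chemokines, the interleukins and their receptors measured in rat liver. Members were taken as probe sets with exactly 1 gene symbol that begins with Ccl, Cxcl, Ccr, Cxcr or Il followed by a digit, 1 gene of the interleukin family is not analysed here, and where a gene had several probe sets the one with the highest average over the 8 arrays stood for it. This gave 88 genes of the 14217 named genes, or 113 of 31042 probe sets: 16 CC chemokines, 11 CXC chemokines, 11 chemokine receptors, 25 interleukins and 25 interleukin receptors or binding proteins. All 88 were matched to RefSeq by gene identifier. Livers came from male Sprague-Dawley rats 7 weeks old, an outbred laboratory strain, with 4 arrays for the iron-deficient diet and 4 for the control diet. The control diet followed the AIN93G formula with Avicel in place of cellulose, and the iron-deficient diet was the same diet without its iron source, ferric citrate. Both groups had been put on timed meals for 4 days from day 12 and were killed on day 17 after 1.5 h of feeding, when hemoglobin in the iron-deficient group was 42% of the control level. The diets were given to 7 rats (iron-deficient) and 6 rats (control). The labels call the arrays biological replicates and do not say which rats gave them, and each array is taken as 1 liver.

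Chemokines are small secreted proteins that guide leukocytes along gradients, and their receptors are G protein-coupled receptors on the cells that follow them. CC and CXC chemokines are named for the spacing of their first cysteines. Interleukins are secreted signals of immune and stromal cells. Many of their receptors pair with a shared chain, such as Il6st (gp130) for the interleukin 6 family or Il2rg, the common gamma chain of the interleukin 2 family. In liver, Kupffer cells, sinusoidal endothelial cells, stellate cells and hepatocytes all make or receive such signals. The comparison asked which of these transcripts differ in the liver under dietary iron deficiency.

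Promoters in this family are known for sites of NF-kB, the transcription factor that relays interleukin 1 and tumour necrosis factor signals. RefSeq promoters of 300 bases (build GRCr8, 250 before and 50 after a transcript start) were available for 66 of the 88 genes, and the first listed was used where a gene had several. The transcript start was the annotated start of the gene for 39 of the 66, lay up to 100 bases inside the gene for 9 and further inside for 18. An NF-kB-type motif, GGG followed by any 2 bases and then TTTCC, searched on both strands, was found in 9 of the 66 promoters (13.64%), against 1.51% of all 27457 promoters. The cores of the hypoxia response element were searched likewise. ACGTG was in 10.61% of the 66 against 19.73% of all and GCGTG in 27.27% against 31.1%. These shares were not tested, several members lie near each other on chromosome 14, and a match is a run of letters and not a binding site. The stretches below show the gene with the largest standardised difference, Il33, over the 155 bases of its window that precede the annotated gene, the gene with the widest range of deposited values, Cxcl1, over 250 bases, and the matched stretch of the other members with a match before the annotated gene. All are printed 5′ to 3′ in the direction of the gene, with the motif, or its reverse complement, in capitals.
Il33, chr1:237115323-237115477, plus strand: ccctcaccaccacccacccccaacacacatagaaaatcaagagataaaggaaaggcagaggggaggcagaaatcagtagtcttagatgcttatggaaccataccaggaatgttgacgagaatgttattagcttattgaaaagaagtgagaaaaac
Cxcl1, chr14:17479322-17479571, minus strand: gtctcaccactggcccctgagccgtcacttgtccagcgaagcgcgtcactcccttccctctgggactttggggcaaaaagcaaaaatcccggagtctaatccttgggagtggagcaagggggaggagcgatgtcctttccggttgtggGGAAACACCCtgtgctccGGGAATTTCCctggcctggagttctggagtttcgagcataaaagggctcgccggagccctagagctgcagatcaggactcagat
Cxcl2, chr14:17467280-17467349, minus strand: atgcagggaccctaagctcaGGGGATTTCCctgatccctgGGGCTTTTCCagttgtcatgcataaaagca
Cxcl6, chr14:17596476-17596525, minus strand: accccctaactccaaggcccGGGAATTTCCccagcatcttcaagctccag
Il6, chr4:5894614-5894663, minus strand: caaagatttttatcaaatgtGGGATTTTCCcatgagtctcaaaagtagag
Ccl20, chr9:91837050-91837099, plus strand: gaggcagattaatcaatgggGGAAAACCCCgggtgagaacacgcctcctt
Ccl9, chr10:68868954-68869003, minus strand: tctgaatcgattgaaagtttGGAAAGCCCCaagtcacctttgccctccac
Il33 holds no match in the window used. Cxcl1 and Cxcl2, the neutrophil attractants that act on Cxcr2, hold 2 matches each. The other 3 genes with a match hold it inside the annotated gene. For Il4r it lay after a transcript start 36 bases inside, and the windows of Il1rn and Ccr3 belong to transcripts that start 10486 and 36716 bases inside. Of these 9 genes with a match, 1, Il4r, had an unadjusted p under 0.05 between the diets, against 13.2% of all genes.

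The deposited log2 values place the members against the other probe sets of the arrays. The array median was 7.12, and 35 of the 88 genes lay above it and 53 below, whereas 9410 of all 14217 genes lay above and 4807 below. Ccl9, a rodent CC chemokine of myeloid cells, was highest with a mean of 13.21, at the 99.6th percentile. Ccl6, a related rodent CC chemokine, had a mean of 11.30. Cxcl12, the stromal ligand of Cxcr4, had a mean of 11.19 and Cxcl11, an interferon-induced ligand of Cxcr3, 10.38. No chemokine receptor exceeded the 75th percentile of 8.26. Levels of different probe sets are not amounts of RNA that can be ranked against each other, since each depends on its own probes.

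Interleukin receptors and binding proteins held 7 of the 13 genes above the 75th percentile. Il6st was at 10.89, Il1r1, the signalling receptor of interleukin 1, at 9.90, Il4r at 9.59, Il1rap, the co-receptor chain shared by Il1r1 and the receptor of Il33, at 9.41, Il10rb at 9.02, Il17ra at 8.80 and Il18bp, a secreted inhibitor of interleukin 18, at 8.61. Among the interleukins only Il33, an alarmin held in the nucleus of stromal and endothelial cells, and Il1a, another alarmin, were above it, at 9.69 and 8.37. The lowest mean of all 88 was that of Il6, at 5.89 and the 2.3rd percentile. On either side of the array median stood Il2rb at 7.115 and Ccl4 at 7.131.

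**Figure D1:**
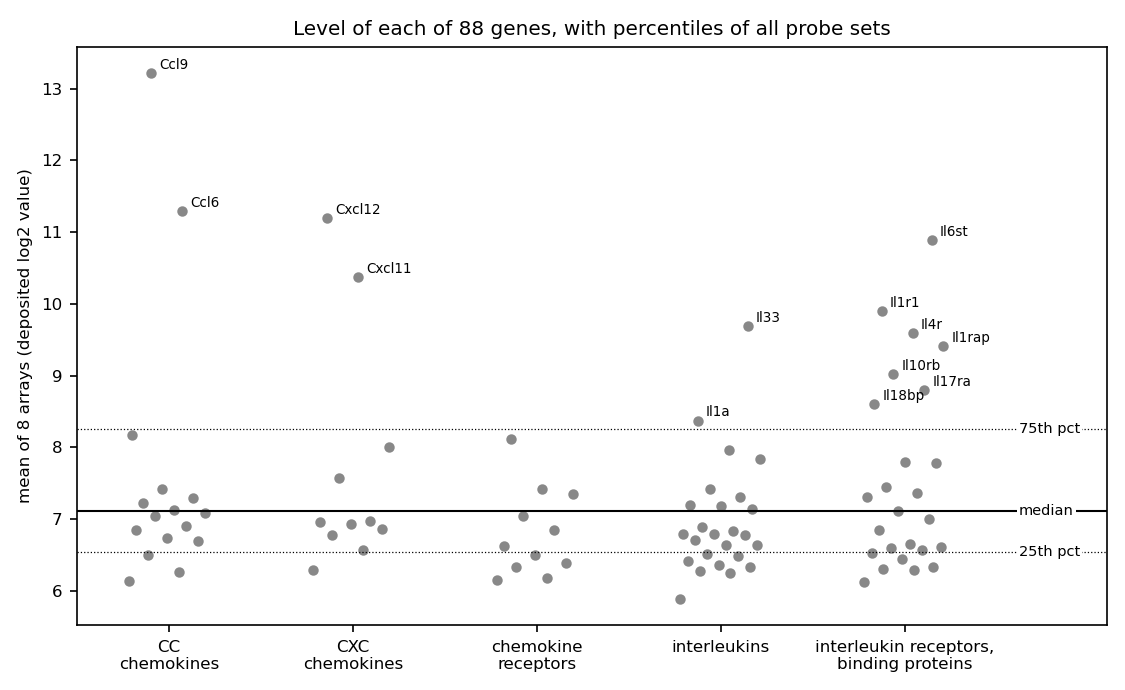
Mean over the 8 arrays (vertical axis, deposited log2 value) of each of the 88 genes, by role, with lines at the median and the 25th and 75th percentiles of all probe sets. The 13 named genes lie above the 75th percentile of 8.26, and no chemokine receptor is among them.

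The size of a deposited difference is not a fold change in this table. Values of a probe set hardly moved between arrays, with a median range over the 8 arrays of 22.3 millionths of a log2 unit among the members, a smallest range of 0.997 and a largest of 336619 millionths. The compression differed between probe sets of 1 gene: the ranges of the 4 Il6st probe sets were 28.9, 1566, 5386 and 18801 millionths. The widest was set by a high value in iron-deficient replicate 4. Differences are therefore given in millionths of a log2 unit relative to the control mean of that probe set, with the standard error (SE), and also in units of the SD within groups (the standardised difference). Only signs and standardised differences can be set beside each other across genes.

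No member passed the adjusted p of 0.05 in limma, where 6 of all 14217 genes did (0.0422%). Quantile normalization of the arrays brought 4 members past it (Ccl6, Ccl9, Cxcl12 and Il33) and median centring 1 (Il33). For all but Il33 the quantile-normalized value was the same on every array of a group, so those 3 calls rest on no spread within the groups, as do 550 of the 778 calls over all genes under that scaling. The 10 members with an unadjusted p under 0.05 were 11.36% of the 88, against 13.2% of all genes. Of these, 6 were higher and 4 lower in iron-deficient livers, where the background was 5.74% higher and 7.5% lower. Another scaling of the arrays moved this split to 8 higher and 6 lower (quantile normalization), to 3 and 7 (quantile normalization without the probe sets of Hamp, the hepcidin gene), or to 2 and 0 (median centring). Under these 3 scalings 20.43%, 11.59% and 2.16% of all genes had such a p. The groups did not overlap for 8 members (9.09%), against 7.82% of all genes. The median standardised difference was 0.16 over the members and -0.07 over all genes, and 52 of the 88 (59.09%) had a higher mean in iron-deficient livers, against 47.0% of all genes. These shares lie near the background. Under quantile normalization 36 members had a higher mean, against 55.76% of all genes, and the median standardised difference was -0.24. Without the Hamp probe sets the count was 25, against 34.2%, and the median -0.38, and under median centring 83, against 90.81%, and 0.17. The values as deposited also rested on 1 array. Control replicate 3 gave the lowest value of all 8 arrays for 23 of the 88 members (26.14%) and for 14.01% of all genes. Without it, 43 members had a higher mean and the median standardised difference was -0.01. With an unadjusted p under 0.05, 2 members were higher and 5 lower. In that fit 47.13% of all genes had a higher mean and 9.77% such a p in either direction.

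**Figure D2:**
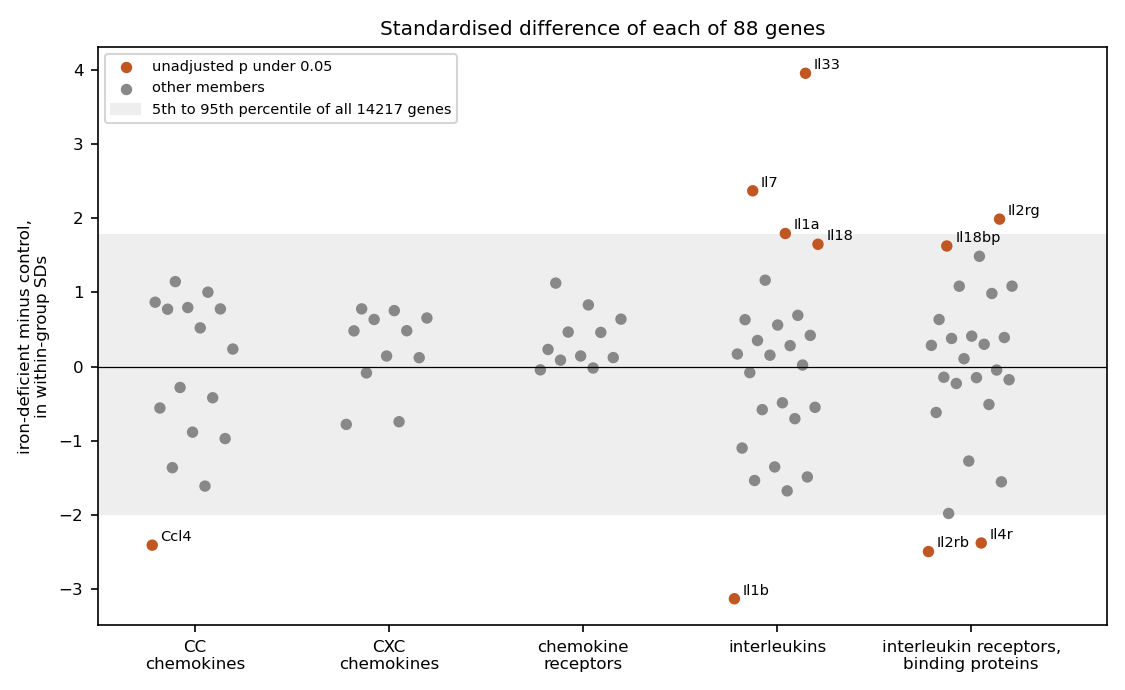
Standardised difference, iron-deficient minus control, of each of the 88 genes by role (vertical axis, within-group SDs). The band holds the 5th to 95th percentile of all 14217 genes (-1.99 to 1.77), the 10 named points have an unadjusted p under 0.05, and 8 members lie outside the band.

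Most members with an unadjusted p under 0.05 lay above the array median. Of the 35 genes above it, 8 had an unadjusted p under 0.05 (22.86%, against 16.1% of all genes above it), 5 of them higher and 3 lower. Of the 53 below it, 2 did (3.77%, against 7.61% of all genes below it). By role, the 10 were 5 of the 25 interleukins, 4 of the 25 interleukin receptors and binding proteins, and 1 of the 16 CC chemokines. None of the 11 CXC chemokines and none of the 11 chemokine receptors was among them, where 13.2% of all genes had such a p. Of these, 7 CXC chemokines and 8 chemokine receptors lay below the array median, where the share was 7.61%. Sets of 11 genes are too small to tell none from such shares, so nothing is read from their absence. The lowest adjusted p in limma were 0.731 for the CXC chemokines and 0.598 for the chemokine receptors. All 5 interleukins were among the 9 above the array median.

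Il33 stood furthest apart. Its values were 1751, 2372, 1692 and 2475 millionths in the 4 iron-deficient livers, against 729, 36.7, 18.4 and -784 millionths in the 4 control livers. All 4 iron-deficient livers exceeded all 4 control livers, and the difference was 2072 ± 354 millionths (SE, n = 4 each), or 3.95 within-group SDs, with an adjusted p of 0.133 in limma. The other probe set of Il33 had 2937, 4458, 2395 and 4622 millionths in iron-deficient livers, against 1350, -254, -87.6 and -1008 millionths in control livers. The groups were again apart, by 3603 ± 708 millionths (SE) and an adjusted p of 0.164. Under quantile normalization the adjusted p was 0.00923 for the first probe set and 5.33e-05 for the second, and under median centring 0.0167 and 0.0332. With the Hamp probe sets left out of quantile normalization, it was 0.284 and 0.0142. Il1rl1, the receptor chain for interleukin 33, lay below the array median and differed by 0.563 ± 1.16 millionths (SE, adjusted p = 0.911 in limma).

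Markers of liver cell types, among them the stromal and endothelial cells known to hold Il33, are given beside it. These marker lists were chosen with earlier results of these data known, so their shares cannot serve as a test. Of 9 endothelial markers, 7 had an unadjusted p under 0.05, all higher in iron-deficient livers (77.8%, against 5.74% of all genes). In this list 8 had a higher mean. The sum of the list was 80.706 to 80.708 in iron-deficient livers and 80.701 to 80.702 in control livers. Of 10 stellate cell markers, 6 were higher by that p and 8 had a higher mean, with sums of 80.375 to 80.380 in iron-deficient livers and 80.369 to 80.372 in control livers. Of 12 Kupffer cell and macrophage markers, 2 were higher by that p and all 12 had a higher mean, with sums of 113.745 to 113.751 in iron-deficient livers and 113.741 to 113.744 in control livers. Such a sum is weighted towards the probe sets with the least compressed values. The median standardised difference was 3.37 over the endothelial, 2.32 over the stellate and 0.58 over the Kupffer cell markers, against -0.07 over all genes. Under quantile normalization, the same without Hamp, and median centring, it was 1.74, 0.71 and 0.77 over the endothelial and 0.73, 0.30 and 0.78 over the stellate markers. Over the Kupffer cell markers it was 0.56, -0.21 and 0.29, with a higher mean for 10, 3 and 12 of the 12. Over all genes it was 0.21, -0.24 and 0.17. None of 9 hepatocyte, 17 lymphocyte or 6 neutrophil markers had an unadjusted p under 0.05, and all 6 neutrophil markers and 10 of the lymphocyte markers were below the array median. The 9 hepatocyte markers were all above the 75th percentile, as the tissue label has it. No marker of these lists passed the adjusted threshold, with a lowest adjusted p of 0.0735 for the endothelial and 0.137 for the stellate markers in limma. In the same order of scalings, the endothelial markers higher by the unadjusted p were 5, 2 and 3 and the stellate markers 4, 3 and 3, where 15.1%, 3.4% and 1.36% of all genes were, and the adjusted threshold was passed by 2, 0 and 2 endothelial and 1, 1 and 0 stellate markers. Under quantile normalization 8 hepatocyte markers and 1 Kupffer cell marker also passed it, but with no spread within the groups, so they are not read as calls. In bulk liver a different number of cells and a different amount of RNA per cell cannot be told apart. The part of these cells in the Il33 values was not tested.

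The interleukin 1 family held 3 more of the 10 members. Il1a had 6156, 1899, 2808 and 1833 millionths in iron-deficient livers, against 1571, 727, -1739 and -559 millionths in control livers. The groups did not overlap, although iron-deficient replicate 1 stood well above the other 3, and the difference was 3174 ± 1196 millionths (SE, adjusted p = 0.399 in limma). Its second probe set had a difference of 4103 ± 1491 millionths (SE, adjusted p = 0.384) with overlapping groups. Il18, which like Il1b is cut to its active form by caspase 1, had 457, 151, 135 and 625 millionths in iron-deficient livers, against 86.8, 31.7, -246 and 128 millionths in control livers. The gap between the groups was narrow, and the adjusted p was 0.431.

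Il1b, the secreted interleukin 1, had the opposite sign. It had -15.9, -14.3, -10.2 and -8.71 millionths in iron-deficient livers, against 5.87, 0.04, -4.73 and -1.18 millionths in control livers. Every iron-deficient liver was below every control liver, by -12.3 ± 2.73 millionths (SE, standardised difference -3.13, adjusted p = 0.209 in limma). Under median centring, which adds 50.6 millionths to each difference, the sign turned to 38.3 millionths. Il1rn, the secreted interleukin 1 receptor antagonist, differed by -5.25 ± 5.09 millionths with overlapping groups. Il18bp, the inhibitor of Il18, had -2.46, 29.1, 70.6 and 56.3 millionths in iron-deficient livers, against 6.98, -1.44, -11.9 and 6.32 millionths in control livers. Iron-deficient replicate 1 lay within the control range, and the adjusted p was 0.437.

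Probe sets of the interleukin 1 receptor differed among themselves. The probe set with the highest mean for Il1r1 had an SD of 0.00638 in iron-deficient livers and 0.00538 in control livers, and a difference of 0.00223 ± 0.00399 log2 units (SE, adjusted p = 0.891). Its other 2 probe sets had differences of 180 ± 70.3 millionths (adjusted p = 0.413) and 131 ± 40.4 millionths (adjusted p = 0.320 in limma), both higher with overlapping groups. Il1rap had differences with a positive sign in both of its probe sets. Of the 17 members with several probe sets, the sign was the same in all probe sets for 11 and differed for 6. None of the 25 other probe sets passed the adjusted threshold, and 7 had an unadjusted p under 0.05, against 13.2% of all genes. These 7 belong to Il1a, Il1r1, Il33, Il6st and Il7, whose values are given in the text, and are not further members.

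Among the cytokines of lymphocytes, Il7, the survival factor of T cells, had the clearest difference in the values as deposited. It had 63.0, 82.6, 103 and 34.0 millionths in iron-deficient livers, against -0.37, 25.4, -42.3 and 17.3 millionths in control livers. The groups did not overlap, with a difference of 70.7 ± 20.2 millionths (SE, standardised difference 2.37, adjusted p = 0.290 in limma). Its second probe set was also higher in all 4 iron-deficient livers, by 113 ± 38.2 millionths (SE, adjusted p = 0.352). Il7r, its receptor chain, lay below the array median and differed by 90.3 ± 56.3 millionths (SE, adjusted p = 0.611).

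The shared chains of this receptor family had opposite signs. Il2rg had 21.0, 12.3, 18.0 and 19.8 millionths in iron-deficient livers, against -10.1, 7.07, -10.3 and 13.3 millionths in control livers. Control replicate 4 exceeded iron-deficient replicate 2, and the adjusted p was 0.359. Il2rb, the beta chain for interleukins 2 and 15, had -38.3, -60.2, -59.6 and -23.4 millionths in iron-deficient livers, against -6.59, -13.5, -7.38 and 27.4 millionths in control livers. Again the groups were apart (standardised difference -2.50, adjusted p = 0.272 in limma). Il4r, the chain shared by interleukins 4 and 13, had -72.1, -94.3, -30.0 and -31.4 millionths in iron-deficient livers, against -8.45, 6.99, 13.3 and -11.8 millionths in control livers. All 4 iron-deficient livers were below the controls (standardised difference -2.38, adjusted p = 0.288). The signs of these 3 receptors changed with the scaling: Il2rg was lower under both quantile normalizations, Il4r was higher under both, and Il2rb was higher under all 3 other scalings. Of the 10 members, only Il33 and Il1a had an unadjusted p under 0.05 under each of these 3 scalings. Il18 and Il18bp had one under 1 of them, and the other 6 under none. The SDs within groups were 524 millionths for Il33 and 1769 for Il1a, and for the rest ran from 3.91 (Il1b) to 207 (Il18). Median centring adds 50.6 millionths to each difference, so such a check says little about the most compressed probe sets.

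**Figure D3:**
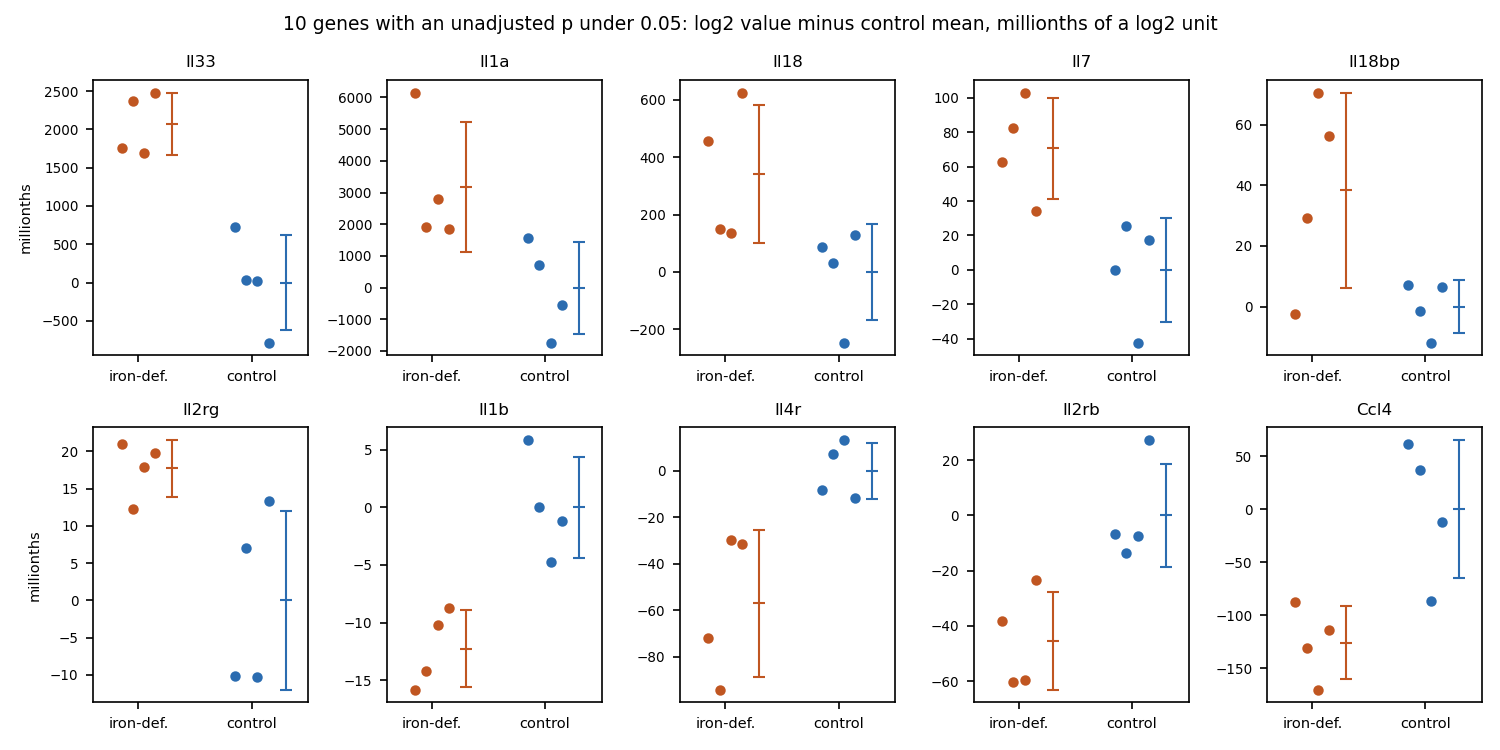
Value in each liver (points, replicates 1 to 4 from left to right in each group) with mean and SD (bars) for the 10 genes with an unadjusted p under 0.05, in millionths of a log2 unit relative to the control mean. The groups do not overlap for 8 of the 10, and they overlap for Il18bp and Il2rg.

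Il6st, the signal chain of the interleukin 6 family, showed the spread between probe sets most plainly. Its brightest probe set differed by 3.1 ± 7.37 millionths, and the other 3 by 5092 ± 3768, 834 ± 302 and 2752 ± 977 millionths (SE, n = 4 each). The difference of 5092 leaned on 1 array: iron-deficient replicate 4 was at 16520 millionths, against 404, 616 and 2828 in the other iron-deficient livers. Without that array the difference was 0.00128 log2 units. All 4 probe sets had a higher mean in iron-deficient livers with overlapping groups, and their adjusted p were 0.926, 0.677, 0.383 and 0.377 in limma. Under quantile normalization without the Hamp probe sets, the brightest turned lower. Il6 itself, an inducer of hepcidin and of the acute phase response, had -2.80, 1.60, 8.83 and -4.97 millionths in iron-deficient livers, against -0.03, -0.72, -0.28 and 1.02 millionths in control livers. The iron-deficient values spread on both sides of the controls, at a level near the bottom of the array. Il10, an anti-inflammatory cytokine, differed by 3.44 ± 2.11 millionths (SE), also below the array median.

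Of the CC chemokines, 8 of 16 had a higher mean in iron-deficient livers, against 47.0% of all genes, and 1, Ccl4, had an unadjusted p under 0.05. Ccl4, a chemokine made by activated macrophages and lymphocytes, had -88.0, -131, -170 and -114 millionths in iron-deficient livers, against 61.8, 36.8, -86.7 and -11.9 millionths in control livers. The groups did not overlap, although iron-deficient replicate 1 at -88.0 lay close to control replicate 3 at -86.7, with a difference of -126 ± 35.4 millionths (SE, standardised difference -2.41, adjusted p = 0.284 in limma). Its sign was the same under all 3 other scalings, but its unadjusted p was over 0.05 under each. It was 0.617 under quantile normalization, 0.304 without the Hamp probe sets and 0.739 under median centring in limma. Ccl9 had -31.9, -22.5, -2.98 and -14.6 millionths in iron-deficient livers, against -1.40, -2.50, 13.8 and -9.92 millionths in control livers. The groups overlapped and the adjusted p was 0.444. The sign was not steady: quantile normalization gave a difference of 9527 millionths (adjusted p = 5.58e-16 in limma), median centring gave 32.6, and quantile normalization without Hamp gave 0. That p is one of those with no spread within the groups. Ccl6 had 117, 54.9, 113 and 202 millionths in iron-deficient livers, against 29.3, 120, -276 and 126 millionths in control livers. The control values spanned the iron-deficient ones except the highest, with an adjusted p of 0.696. Ccl2, the monocyte attractant, differed by 2.97 ± 2.62 millionths and its receptor Ccr2 by 1.77 ± 5.24 millionths (SE), both below the array median. Ccl5, an attractant of T cells, varied more within than between the groups, at -236 ± 379 millionths (SE).

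Of the CXC chemokines, 8 of 11 had a higher mean, against 47.0% of all genes, all with overlapping groups. Cxcl1 had the widest range of deposited values of the 88 members, although ranges of differently compressed probe sets do not say which gene varied most. Its log2 values were 6.877, 6.925, 7.214 and 7.015 in iron-deficient livers, against 6.893, 6.985, 6.887 and 6.935 in control livers. Iron-deficient replicate 3 stood highest and iron-deficient replicate 1 lowest of all 8. The means were 7.01 ± 0.149 in iron-deficient livers and 6.93 ± 0.0455 in control livers (SD, n = 4 each), with an adjusted p of 0.742 in limma. Cxcl2 and Cxcl6, whose promoters carry the same motif, differed by 0.648 ± 1.14 and 0.813 ± 4.66 millionths (SE).

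Cxcl12 and its receptor Cxcr4 were measured by 3 probe sets each. Cxcl12 differed by 184 ± 190, -51.5 ± 261 and 5165 ± 3657 millionths (SE), with signs that did not match. Cxcr4 had -410, -265, 1031 and 1181 millionths in iron-deficient livers, against 171, -8.53, 5.45 and -168 millionths in control livers. Iron-deficient replicates 3 and 4 were above all control livers and replicates 1 and 2 below them, a split that its other 2 probe sets showed for replicates 3 and 4 as well. The adjusted p was 0.788. Cxcl9, an interferon-induced ligand of Cxcr3, had a lower mean in both of its probe sets, by -423 ± 366 and -329 ± 405 millionths (SE). Of the 11 chemokine receptors, 9 had a higher mean and none an unadjusted p under 0.05. Of these receptors 8 lay below the array median, where 55.69% of all genes had a higher mean.

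**Figure D4:**
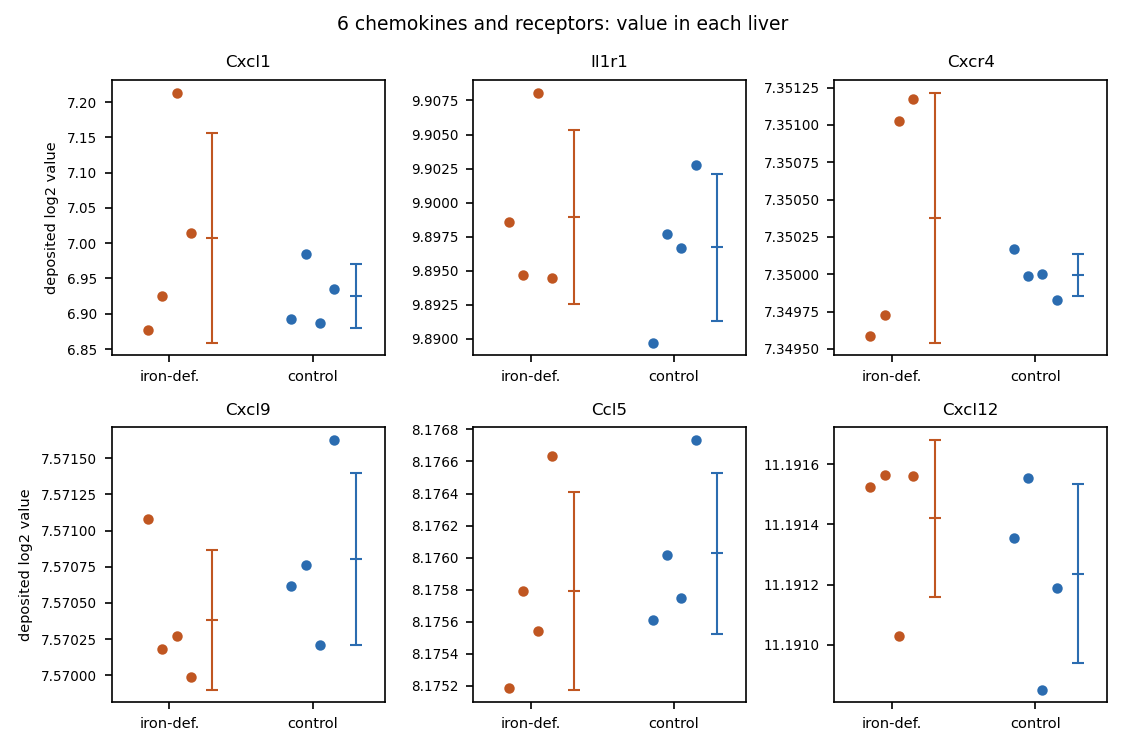
Deposited log2 value in each liver (points, replicates 1 to 4 from left to right in each group) with mean and SD (bars) for Cxcl1, Il1r1, Cxcr4, Cxcl9, Ccl5 and Cxcl12. The groups overlap in every panel, and the axes differ in scale by orders of magnitude.

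Chemokine genes and receptors that do not carry these names were listed apart, and 11 of 12 were measured. All 11 had a higher mean in iron-deficient livers, against 47.0% of all genes, and 5 had an unadjusted p under 0.05, all higher (45.45%, against 5.74% of all genes). The groups did not overlap for 4 of them (36.36%, against 7.82% of all genes), and none passed the adjusted threshold. This list was chosen with earlier results of these data known, and its count was not steady. With quantile normalization, with or without the Hamp probe sets, 5 and 4 of the 11 had a higher mean. Of all genes, 55.76% and 34.2% did. Under each of the 3 other scalings, 3 of the 11 were higher with an unadjusted p under 0.05. Of all genes, 15.1% were under quantile normalization, 3.4% without the Hamp probe sets and 1.36% under median centring. The values of the endothelial and stellate markers are given above, and their part in this count was not tested.

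Ackr4, an atypical receptor that takes up Ccl19 and Ccl21 without signalling through G proteins, had the lowest p. Its log2 values were 7.4739, 7.4713, 7.4684 and 7.4739 in iron-deficient livers, against 7.4614, 7.4640, 7.4625 and 7.4630 in control livers. The groups were well apart (standardised difference 4.61, adjusted p = 0.102 in limma). The adjusted p was 0.00624 under quantile normalization, 0.0637 without the Hamp probe sets and 0.00670 under median centring. Cx3cl1, fractalkine, a membrane-bound attractant of monocytes, differed by 8.79 ± 1.46 millionths (SE, adjusted p = 0.127) with groups that did not overlap, and was lower when arrays were quantile normalized without Hamp.

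The other 3 of the 5 are named after their values were seen. Ackr3, an atypical receptor that takes up Cxcl12 and Cxcl11, had log2 values of 7.027, 6.999, 6.992 and 6.984 in iron-deficient livers, against 6.950, 6.952, 6.954 and 6.946 in control livers. All 4 iron-deficient livers were above the controls (standardised difference 3.81, adjusted p = 0.137 in limma), at a mean just below the array median. The adjusted p was 0.0301 under quantile normalization, 0.151 without the Hamp probe sets and 0.0105 under median centring. Pf4, a chemokine stored in platelets and megakaryocytes, had 7.751, 7.767, 7.768 and 7.780 in iron-deficient livers, against 7.744, 7.741, 7.726 and 7.745 in control livers. No iron-deficient liver fell within the control range (adjusted p = 0.251). Ppbp, the other platelet chemokine, differed by 21.7 ± 7.81 millionths (SE, adjusted p = 0.381) with overlapping groups, and turned lower under both quantile normalizations.

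**Figure D5:**
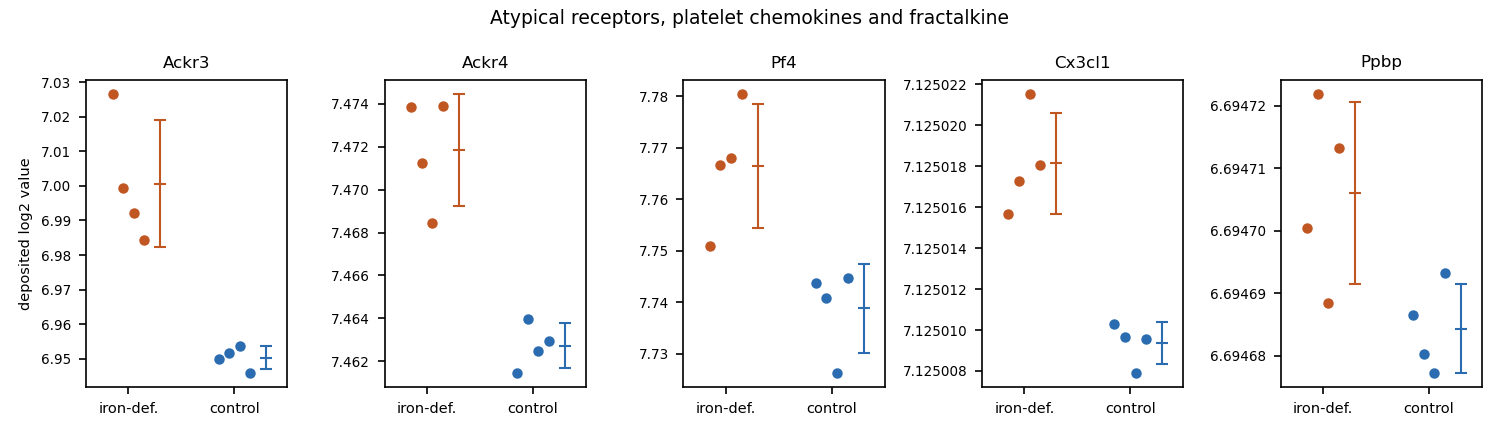
Deposited log2 value in each liver (points, replicates 1 to 4 from left to right in each group) with mean and SD (bars) for Ackr3, Ackr4, Pf4, Cx3cl1 and Ppbp. The groups are apart for all but Ppbp, and the axis of Cx3cl1 covers only millionths of a log2 unit.

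Downstream of the receptors, 45 of 50 listed signalling genes were measured, among them Janus kinases, STAT factors, SOCS inhibitors and the NF-kB pathway. Of these, 3 were higher and 7 lower with an unadjusted p under 0.05 (22.22% of the 45, against 13.2% of all genes). As 39 of the 45 lay above the array median, the nearer share is the 16.1% of all genes above it. None passed the adjusted threshold. This split was not steady: it was 11 and 2 under quantile normalization, 3 and 5 without the Hamp probe sets and 0 and 1 under median centring. Of all genes, 15.1%, 3.4% and 1.36% were higher by that p in the same order of scalings. In either direction, 20.43%, 11.59% and 2.16% of all genes had such a p. Under these scalings the adjusted threshold was passed by 2, 1 and 0 of the signalling genes, of which 1, 1 and 0 had no spread within the groups. The lowest p were those of Arrb2, a beta-arrestin that stops chemokine receptor signalling, at -23.1 ± 4.78 millionths (SE, adjusted p = 0.182), and Socs7, a SOCS family member, at -28.0 ± 6.03 millionths (SE, adjusted p = 0.196 in limma). Both groups were apart for either gene, but Arrb2 turned higher under all 3 other scalings and Socs7 under 2 of them. For other cytokines and their receptors, 34 genes were measured. Of these, 1 was higher and 1 lower with an unadjusted p under 0.05 (5.88%, against 13.2% of all genes). These were Crlf2, a receptor chain for thymic stromal lymphopoietin, at 30.4 ± 11.9 millionths (SE, adjusted p = 0.413), and Lepr, the leptin receptor, at -182 ± 57.7 millionths (SE, adjusted p = 0.332). Of 4 measured genes that process interleukin 1 precursors, Gsdmd, which forms the pore through which Il1b leaves cells, was lower in all 4 iron-deficient livers by -242 ± 78.1 millionths (SE, adjusted p = 0.338). It turned higher under both quantile normalizations. Casp1, the enzyme that cuts Il1b and Il18, differed by 29.0 ± 13.5 millionths (SE, adjusted p = 0.482) with overlapping groups, and turned to -229 and -254 millionths under the 2 quantile normalizations.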

How the data were processed

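Liver RNA was measured on Affymetrix rat arrays, 4 for each diet, from 2 ug of total RNA per the labels' protocols. Each array is taken as 1 liver, since the labels call the arrays biological replicates. The authors deposited 1 log2 value per probe set and array, a unit read from the values. The summary and normalisation steps behind it are not given in the sources used here, and the compression described above limits sizes. Of 31099 probe sets, 57 controls were left out. Of the other 31042, 20826 had 1 symbol in the platform annotation, 436 several and 9780 none. No 2 arrays were copies of each other, with at most 8 identical values in any of 28 pairs. Replicate numbers were not treated as pairs, since the sample titles name none. Correlations of same-numbered deviations lay between -0.111 and 0.0245, which cannot exclude a pairing.

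Iron-deficient was compared with control in limma 3.58.1 (R 4.3.3), with lmFit and eBayes without block, trend or robust options, and Benjamini-Hochberg adjustment over all 31042 probe sets at a threshold of 0.05. On simulated data with 50 probe sets changed at each size, 4%, 20%, 92% and 96% of changes of 2, 4, 8 and 16 within-group SDs were recovered, with 4 false calls. The number of arrays limits the precision: of the simulated sizes, 4 SDs was mostly missed and 8 SDs mostly recovered, and sizes between them were not simulated.

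Members and lists were chosen with earlier results of these data known. Genes named are the 10 with an unadjusted p under 0.05, the 4 with the highest mean in each role, the 8 with the largest deposited difference and 12 cytokine genes always given, 31 in all with some under several rules. Genes outside this rule are named for their place in the text, as receptors or partners or for their promoters. Of each pathway list, the 2 with the lowest p are named. Promoters are from RefSeq (GRCr8), 1 window per gene. Alternatives were quantile normalization with and without Hamp probe sets, median centring, leaving out the dimmest 25% of probe sets, another variance model, a replicate block, averaging a gene's probe sets, and leaving out each array.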

Additional observations from a re-analysis of the deposited data

Results flagged for a closer look

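A sample that stood far from the other 3 of its group was found in 5 of 62 groups of 4 values, 8.06%, where chance flags about 1 in 20 groups. The measure is the gap to the nearest other sample divided by the range of the group (Dixon's ratio), taken at its 95% critical value. The highest was that of Cxcl12, where iron-deficient replicate 3 lay 497 millionths of a log2 unit below the others (0.926), which spanned 39.8 millionths. Cxcr5, the receptor that guides B cells, had its highest value apart in both groups, at iron-deficient replicate 3 (0.859) and control replicate 4 (0.882). Cxcl11 was lowest in control replicate 3 (0.888), by 20.9 millionths. Il2rb was highest in control replicate 4 (0.832), by 34.0 millionths, on the side that widens its difference between the diets. Without control replicate 4, the number of members lower in iron-deficient livers with an unadjusted p under 0.05 was 5, against 4 with it. Of all genes, 13.28% had such a p in either direction without it and 13.2% with it.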

How the results depend on the processing

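Of 462 recomputed differences of the 31 named members under 15 alternatives, 415 kept their sign and their side of the adjusted threshold, 43 changed sign and 4 crossed the threshold with the same sign. Scaling changed most. Under quantile normalization 4 members passed the adjusted threshold (Ccl6, Ccl9, Cxcl12 and Il33), the first 3 with no spread within the groups and Ccl9 turned to 9527 millionths of a log2 unit, and under median centring 1 (Il33). The 6 higher and 4 lower members with an unadjusted p under 0.05 were 3 and 7 under quantile normalization without the Hamp probe sets and 2 and 0 under median centring, and the 52 with a higher mean (47.0% of all genes) were 25 (34.2%) and 83 (90.81%), and 36 (55.76%) under quantile normalization. The other chemokine genes and receptors higher by that p, an alternative added after the data were seen, numbered 3 in place of 5 under each of the 3 scalings. Of all genes, 15.1% were higher by that p under quantile normalization, 3.4% without the Hamp probe sets and 1.36% under median centring. Under quantile normalization the differences turned, in millionths, to -145 for Ccl2, 49.6 for Ccl27, -48.5 for Cxcr5, -13.8 for Il10, 94.6 for Il2rb, -54.1 for Il2rg and 426 for Il4r. Without the Hamp probe sets they turned to -145 for Ccl2, -47.8 for Cxcl16, -182 for Cxcr5, -13.8 for Il10, 11.3 for Il2rb, -54.1 for Il2rg, 78.9 for Il4r and -1808 for Il6st. Median centring turned 6, to 44.5 for Ccl27, 32.6 for Ccl9, 49.5 for Cxcl11, 38.3 for Il1b, 45.3 for Il1rn and 5.22 for Il2rb, by the constant it adds. The cause of the other turns was not tested. With the replicate block, 3 members were higher with an unadjusted p under 0.05 and 6 lower, none past the adjusted threshold. Of all genes, 11.08% had such a p in that fit. Leaving out 1 array at a time gave 2 to 6 higher members, the lowest without control replicate 3 (2) and control replicate 2 (3). In these fits 9.77% to 14.01% of all genes had an unadjusted p under 0.05 in either direction. The share was 9.77% without control replicate 3 and 10.17% without control replicate 2. An unadjusted p over 0.05 was found in 4 of 8 such fits for Il1a, 6 for Il18, 7 for Il18bp and 5 for Il2rg. It was found in none for Il33, Il7, Il1b, Il2rb, Il4r and Ccl4. Ranges that crossed 0 were -1.34 to 5.13 for Ccr2, -6.47 to 7.08 for Ccr6, -6.60 to 3.94 for Cxcl11, -1.01 to 4.61 for Cxcl16, -1.05 to 2.01 for Cxcr3, -814 to 4264 for Il1r1, -2.06 to 2.54 for Il6 and -0.303 to 9.54 for Il6st. The adjusted p of Il33 lay between 0.131 and 0.301 when 1 array was left out and between 0.00923 and 0.404 over all alternatives.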
